A study of Mus musculus with 8 samples.

Results

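The experiment described here compared mouse skin tumour cells that had lost both Twist1 and p53 with tumour cells of floxed littermates that kept both genes. It comprised 4 of the 8 arrays of the series, 2 from the deletion group and 2 from its own controls, all on 1 Affymetrix mouse genome array type with perfect-match probes alone. Members were all probe sets of this table with 1 gene symbol, 28864 of 45083, which represented 17084 genes. Of these, 13667 genes had a signal above the 20th percentile and were tested.

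Twist1 is a basic helix-loop-helix transcription factor best known for epithelial-mesenchymal transition, and p53 is the transcription factor that responds to DNA damage and oncogene activity by switching on genes of cell cycle arrest, repair and cell death. Cells that sense foreign or misplaced nucleic acids make type I interferons, whose receptor activates a transcription factor complex that contains IRF9. This complex binds the interferon-stimulated response element of many antiviral genes. In skin, keratinocytes themselves express the sensors and respond to both types of interferon.

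Tumours had been induced with DMBA, a carcinogen, and TPA, a tumour promoter, and every animal received tamoxifen as 5 doses of 2 mg. The control group carried the genotype Twist1fl/fl:p53fl/fl and no Cre. The deletion group carried K14CreER:Twist1fl/fl:p53fl/fl, in which the keratin 14 promoter drives a tamoxifen-dependent Cre in basal cells of stratified epithelia, so that cells outside that lineage keep both genes. All groups were littermates of mixed background that combined up to 6 transgenes. Cells were sorted as live (DAPI-) cells with the epithelial surface protein Epcam and without lineage markers (Lin-), for which antibodies to CD45, CD31 and CD140a were used. The sample titles call the deletion group a rescue. The labels do not say that the 2 arrays of a group came from different animals, so p-values measure the spread between these samples, which may be technical.

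Values are log2 signals as deposited, and differences are deletion minus control with limma's moderated standard error (SE) and the adjusted p over all 13667 genes, with 2 arrays per group throughout. Some members are named for their role and were chosen after their values were seen. Twist1 itself fell, from 6.15 and 6.04 in the controls to 4.82 and 5.01 in the deletion arrays (-1.19, SE 0.14, adjusted p = 0.041). The sources used here do not say whether its probe set lies inside the deleted part. Female-specific Xist read 10.92 and 10.89 in the controls against 4.06 and 3.66, and Y-linked Eif2s3y 3.52 and 3.26 against 8.90 and 9.27, so sex, the presence of CreER and the deletion cannot be told apart. Without genes of the X and Y chromosomes, 240 genes were called. Differences between the 2 deletion arrays had an SD of 0.47 over genes, against 0.19 between the 2 controls. The 3' to 5' difference of Gapdh lay between -0.04 and 0.06 and that of Actb between -0.30 and -0.18 on all 4 arrays, with overlapping groups. The hybridisation control probe sets averaged 9.64 and 9.77 on the control arrays against 9.95 and 9.96 on the others, so these groups did not overlap.

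A total of 161 genes rose (1.18% of those tested) and 85 fell (0.622%), together 246 (1.8%). The groups did not overlap for 54.3% of all genes, and 2897 genes had an unadjusted p under 0.05. Rises were larger than falls: 71 genes rose by at least 2 log2 units, and 15 fell by as much. These calls depended on which arrays gave the spread. With control 1 or control 2 left out, no gene passed in limma, with 1027 and 1141 genes at an unadjusted p under 0.05, whereas without deletion array 1 or 2 all 246 calls were kept among 3775 and 3363. Without a deletion array the spread comes from the 2 controls alone, which lay closest together, so those larger counts say nothing about stability. Without a control it comes from the 2 deletion arrays alone, which lay further apart (SD 0.47 against 0.19). An exact permutation test of 2 against 2 arrays cannot reach the threshold.

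**Figure D1:**
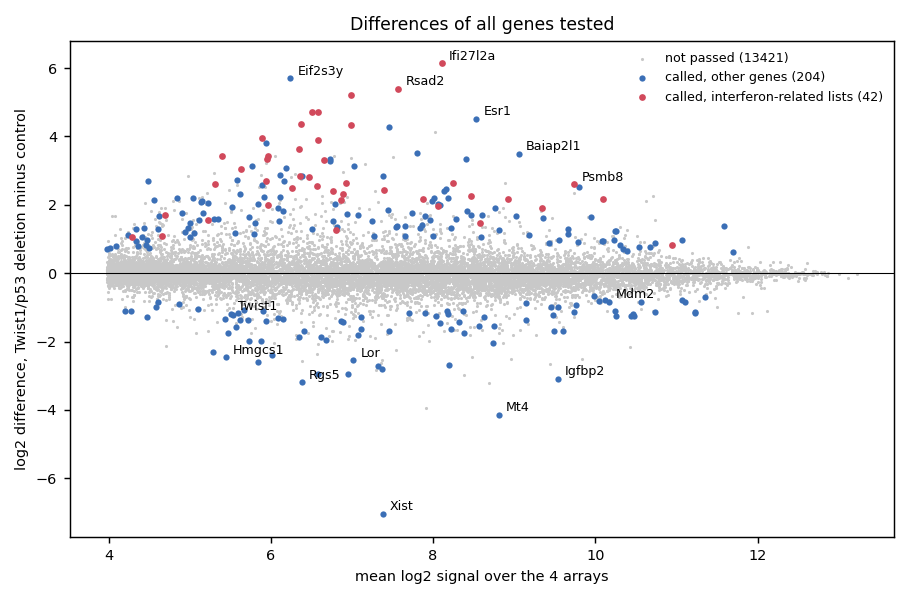
The log2 difference of each tested gene (vertical axis, Twist1/p53 deletion minus control) against its mean log2 signal over the 4 arrays (horizontal axis). Grey points did not pass, blue points were called, and red points are the 42 called genes of the interferon-related lists, all of which lie above 0.

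Members of the interferon-related lists accounted for 42 of the 161 rises, and further genes known to respond to interferon rose outside these lists. Across 8 lists of sensors, signalling, effectors, GTPases, antigen presentation and chemokines, 136 genes were tested and 42 rose, 33 of them by at least 2 log2 units, while none fell, against 1.18% of all genes that rose. Of the 136, 9 had a control mean below the filter level (a log2 signal of 3.98) and were tested only through the deletion arrays, among them 4 of the 42. Over all genes, 20 of the 161 rises had such a control mean. The median difference of all tested genes was -0.02. A motif search was made in the 250 bases before each gene's start in RefSeq promoters of build GRCm38.p6, with the core of the interferon-stimulated response element spelled GAAA, NN for any 2 bases and GAAA, and searched on both strands. The following promoters, printed 5' to 3' on the gene's strand with each match in capitals, belong to an RNA-binding antiviral protein with 2 matches (Ifit1), its partner (Ifit3), a guanylate-binding GTPase (Gbp2) and a T-cell chemokine (Cxcl10). The match of Cxcl10 lies on the gene's own strand and those of the other genes on the opposite strand. They lie at chr19:34640639-34640888 (+), chr19:34583279-34583528 (+), chr3:142620413-142620662 (+) and chr5:92348890-92349139 (-).
Ifit1: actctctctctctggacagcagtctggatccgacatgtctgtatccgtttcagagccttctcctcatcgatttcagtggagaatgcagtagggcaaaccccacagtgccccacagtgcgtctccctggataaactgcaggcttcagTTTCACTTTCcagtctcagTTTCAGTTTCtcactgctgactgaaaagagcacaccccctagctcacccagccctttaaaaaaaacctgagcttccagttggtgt
Ifit3: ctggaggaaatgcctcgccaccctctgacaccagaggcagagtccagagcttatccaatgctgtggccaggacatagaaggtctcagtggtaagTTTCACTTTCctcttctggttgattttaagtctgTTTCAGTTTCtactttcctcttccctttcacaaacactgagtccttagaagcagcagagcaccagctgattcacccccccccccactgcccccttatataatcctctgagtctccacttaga
Gbp2: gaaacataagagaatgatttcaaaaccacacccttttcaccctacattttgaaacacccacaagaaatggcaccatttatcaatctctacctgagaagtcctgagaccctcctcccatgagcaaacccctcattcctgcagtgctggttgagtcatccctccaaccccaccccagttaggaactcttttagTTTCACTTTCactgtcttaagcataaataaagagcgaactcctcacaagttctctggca
Cxcl10: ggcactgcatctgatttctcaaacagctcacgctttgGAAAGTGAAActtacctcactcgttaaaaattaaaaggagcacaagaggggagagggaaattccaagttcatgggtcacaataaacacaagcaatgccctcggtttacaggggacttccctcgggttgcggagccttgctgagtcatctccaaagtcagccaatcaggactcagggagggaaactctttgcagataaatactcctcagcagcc
The 12 promoters with the motif among 30 interferon-related genes that rose and had a promoter entry were 40.0%, against 2.98% of all 32851 promoters and 2.96% of the tested genes. A gene counted when any of its listed promoters held the motif. Of the other risen genes, 7 of 90 (7.78%) held it: Apol9a, Ece1, Esr1, Lgals9, Phf11a, Selenop and Trim30d. The signal of Esr1 cannot be told apart from that of the CreER transgene, which the controls lack. Among interferon-related genes that did not pass, the motif stood in 15 of 75 (20%). None of the 66 fallen genes with an entry held these letters in this window. A match is a description of letters and does not show binding.

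The cytosolic sensors of viral nucleic acid were among the rises, with 5 of 15 genes of their list (median difference 1.06). Ifih1, which encodes the long double-stranded RNA sensor MDA5, read 4.86 and 5.14 on the control arrays against 8.01 and 8.60 after deletion (3.31, SE 0.26, adjusted p = 0.021). Ddx58, which encodes RIG-I, the sensor of RNA 5' triphosphates, went from 7.17 and 6.98 to 8.89 and 9.22 (1.98, SE 0.18, adjusted p = 0.025). Dhx58, whose product LGP2 tunes both, went from 4.17 and 4.06 to 7.04 and 7.26 (3.03, SE 0.15, adjusted p = 0.0088). The groups stood apart for all 3 helicases by more than either group's own spread. Zbp1, the Z-form nucleic acid sensor that can start necroptosis, showed 4.22 and 4.27 against 7.61 and 7.76 (3.44, SE 0.14, adjusted p = 0.0085). The endosomal RNA receptor gene Tlr3 rose less, from 6.23 and 6.12 to 7.36 and 7.49 (1.25, SE 0.15, adjusted p = 0.042). The DNA-sensing arm gave no call. The adaptor gene Sting1 read 5.11 and 4.63 against 5.95 and 6.52 (1.36, adjusted p = 0.093), while Cgas, the sensor upstream of it, read 7.28 and 7.26 against 7.16 and 7.22 (-0.09). Mavs, the adaptor of the RNA helicases, was lower without passing (-0.58, adjusted p = 0.12).

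The interferon genes themselves gave no call. Of the 10 listed, 6 had a probe set and 3 lay above the filter: Ifnb1 (0.10, adjusted p = 0.62), Ifna1 (0.13) and Ifna5 (0.19). The receptor genes of type I interferon, Ifnar1 (0.36) and Ifnar2 (0.50), and of interferon gamma, Ifngr1 (0.79) and Ifngr2 (0.56), were higher, and none passed. Their groups did not overlap, which held for 54.3% of all genes. Of 22 receptor, JAK, STAT and IRF genes, 2 rose (median 0.23). Irf9, the DNA-binding subunit of the type I complex, went from 6.84 and 6.74 to 8.69 and 9.23 (2.17, SE 0.22, adjusted p = 0.032). Irf7, the factor that amplifies interferon alpha transcription, went from 5.81 and 5.77 to 7.75 and 8.13 (2.15, SE 0.19, adjusted p = 0.023). Their partner gene Stat2 read 6.06 and 5.60 against 7.58 and 8.16 and missed the threshold (2.04, SE 0.28, adjusted p = 0.055). Irf2, a repressor of the pathway, was at 0.82 (adjusted p = 0.062), and Irf5 and Tyk2 were lower without passing (-0.66 and -0.55). Isg15 has no value here, because no probe set of it carries 1 symbol in the annotation.

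The antiviral effector list held 40 tested genes, of which 15 rose (median 1.12), and 38 had a higher mean. Ube2l6, the conjugating enzyme for ISG15, read 5.27 and 5.32 against 7.85 and 7.85 (2.56, SE 0.14, adjusted p = 0.011), and Usp18, which removes ISG15 and blocks the interferon receptor, 4.02 and 3.80 against 7.73 and 8.02 (3.97, SE 0.18, adjusted p = 0.0085). Usp18 had a control mean below the filter level and was tested only through the deletion arrays. Herc6, the mouse ligase for ISG15, rose by 1.09, whereas Uba7, the activating enzyme, was at 0.96 and did not pass (adjusted p = 0.055). The poly(ADP-ribose) polymerase family genes Parp9, Parp12 and Parp14 rose by 2.33, 2.44 and 2.26. Dtx3l, whose product pairs with that of Parp9, had a comparable difference of 2.07 but its deletion arrays lay far apart, at 8.37 and 9.54, and it did not pass (adjusted p = 0.092). Ifit3 went from 5.18 and 4.86 to 7.62 and 7.39 (2.48, SE 0.19, adjusted p = 0.021). The pro-apoptotic gene Xaf1 (3.63), the HIN-200 DNA-binding gene Ifi205 (3.35), Lgals3bp (2.85) and the nuclear body gene Sp100 (1.55) rose too.

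Not all effectors rose. Ifitm3, an inhibitor of viral entry, was already among the bright probe sets, at 12.05 and 12.01 in the controls against 12.33 and 12.39 (0.33, adjusted p = 0.063). Ifitm1 read 5.59 and 6.12 against 5.77 and 5.98, with overlapping groups. The dynamin-like GTPase genes Mx1 (0.79) and Mx2 (0.75), the RNA-dependent kinase gene Eif2ak2 (1.44) and the nucleotide hydrolase gene Samhd1 (0.37) did not pass. In the oligoadenylate synthetase family, whose members activate RNase L on double-stranded RNA, 2 of 7 rose, Oasl2 by 4.72 and Oas1g by 2.17. Oas3 (2.74), Oas2 (1.83) and Oasl1 (1.73) had differences of that size without passing, with adjusted p between 0.064 and 0.14. Oas1f, which is not on the list and was picked out after its values were seen, fell, from 7.66 and 7.44 to 5.63 and 5.72 (-1.88, SE 0.16, adjusted p = 0.022). Oas1 genes are near-identical copies, so the assignment of signal between Oas1f and Oas1g is uncertain.

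Interferon-inducible GTPases, which attack the vacuoles of intracellular pathogens, gave 7 rises among 10 tested genes (median 2.27). With a filter at the 50th percentile, which tests fewer genes, 3 rose. Of the 10, Iigp1, Irgm1, Tgtp1, Gbp3 and Irgm2 had a control mean below the filter level and were tested only through their deletion arrays, so the count and the median are a description. Igtp had control values of 4.52 and 4.75 and deletion values of 8.30 and 8.74 (3.89, SE 0.22, adjusted p = 0.011). Iigp1 followed, at 3.77 and 3.59 against 7.05 and 7.19 (3.44, SE 0.14, adjusted p = 0.0085). The guanylate-binding protein genes Gbp7 and Gbp2 rose by 2.81 and 2.71, and Ifi47, Irgm1 and Tgtp1 by 2.62, 1.70 and 1.07. Gbp3 (1.91, adjusted p = 0.078) and Irgm2 (1.20, adjusted p = 0.12) did not pass, and Gbp4 overlapped between groups, at 8.17 and 8.26 against 8.70 and 8.26.

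Of 18 tested genes of antigen presentation by MHC class I, 5 rose and all 18 had a higher mean (median 0.80), and 3 rose with the mean over probe sets or without the intensity trend. Nlrc5, the transactivator of class I genes, read 5.58 and 5.65 against 7.93 and 8.57 (2.63, SE 0.25, adjusted p = 0.028). The immunoproteasome subunit genes Psmb8 and Psmb9 went from 8.52 and 8.36 to 10.93 and 11.15 (2.60, SE 0.12, adjusted p = 0.0088) and from 7.94 and 7.74 to 9.68 and 10.31 (2.16, SE 0.24, adjusted p = 0.038). Psmb10, the remaining inducible subunit, was at 0.76 and did not pass (adjusted p = 0.063). Tapbp, which encodes the peptide-loading chaperone tapasin, rose by 0.83, from 10.54 and 10.52 to 11.34 and 11.39. The classical heavy chains H2-K1 (0.29) and H2-D1 (0.33) were bright in all arrays, between 12.11 and 12.82, and did not pass. Their dimmer probe sets were higher too, by 0.60, 0.64 and 0.67 for H2-K1 and by 0.86, 0.72, 0.22 and 0.23 for H2-D1. The non-classical gene H2-T23 rose by 1.47, but its 1 other probe set differed in the opposite direction.

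Class II presentation, which interferon gamma induces through Ciita, gave 2 rises among 13 genes (median 0.33). The invariant chain gene Cd74 read 5.37 and 5.75 against 7.63 and 8.29 (2.40, SE 0.29, adjusted p = 0.042). H2-Ab1 read 8.22 and 8.57 against 10.23 and 10.36 (1.90, SE 0.16, adjusted p = 0.021), and both of its other probe sets were higher too. H2-Aa, which pairs with it, was at 1.69 and did not pass (adjusted p = 0.075). Ciita overlapped between groups, at 4.19 and 4.18 against 4.25 and 4.00, close to the filter level, as did H2-Ea (0.09).

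Among 12 interferon-type and monocyte chemokines 4 rose (median 0.76). Cxcl10, a ligand of the T-cell receptor CXCR3, went from 6.79 and 7.07 to 9.61 and 9.54 (2.65, SE 0.15, adjusted p = 0.012), and Cxcl9, a ligand of the same receptor, rose by 4.72. Ccl5, which draws T cells and monocytes, went from 4.98 and 4.94 to 6.86 and 7.07 (2.01, SE 0.15, adjusted p = 0.020), and Ccl8 rose by 4.33. The monocyte chemokine gene Ccl2 was high in deletion array 1 alone, at 9.27 against 8.10 in array 2 and 7.64 and 8.06 in the controls. Of 9 keratinocyte and neutrophil chemokines 2 rose, Cxcl12 by 1.67 (3.67 and 3.90 against 5.63 and 5.27) and Ccl27a, a chemokine of skin-homing T cells, by 2.12. Cxcl12 had a control mean below the filter level and was tested only through the deletion arrays. Its 2 other probe sets differed by 0.01 and 0.72. The 3 other probe sets of Ccl27a differed by 0.67, 0.03 and -0.05. The eosinophil chemokine gene Ccl11, which is on neither list, went from 4.03 and 4.05 to 7.49 and 8.20 (3.80, SE 0.27, adjusted p = 0.017). None of 18 interleukin and alarmin genes passed.

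**Figure D2:**
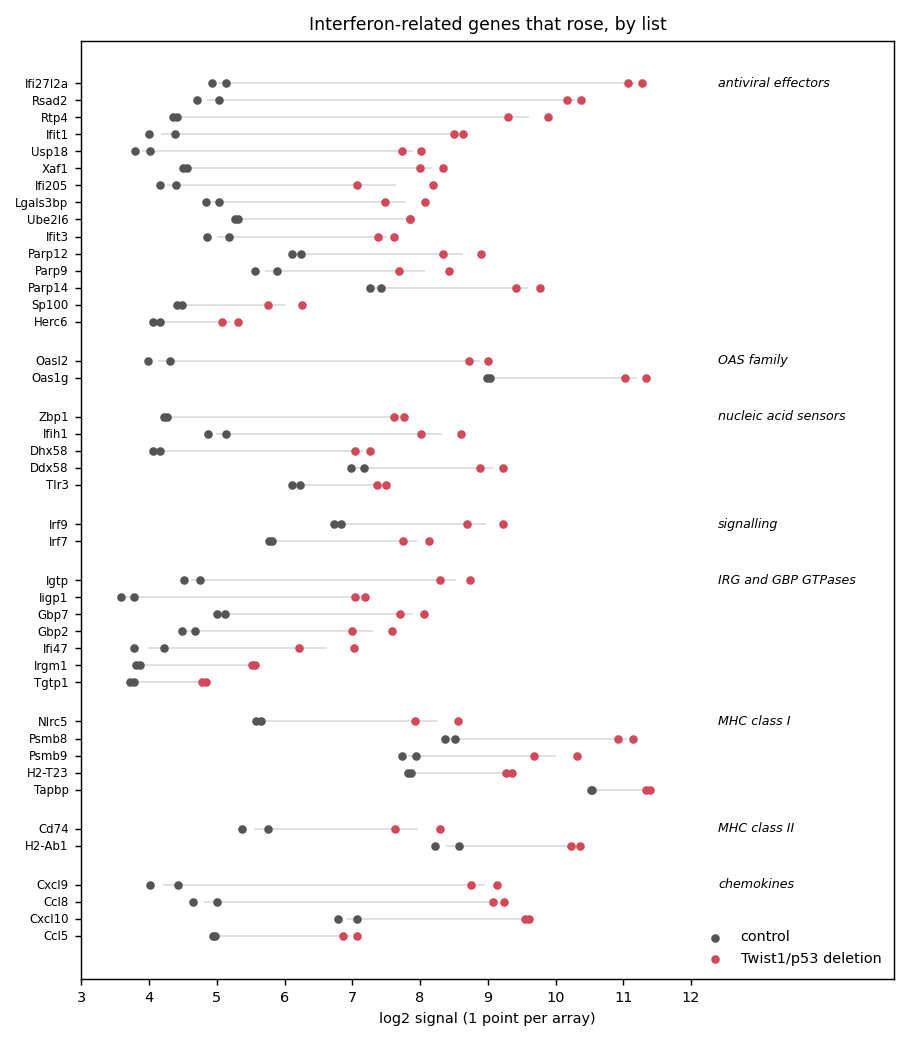
The log2 signal (horizontal axis) of the 42 interferon-related genes that rose, 1 point per array, with controls in grey and Twist1/p53 deletion arrays in red, grouped by list. No control point reaches a deletion point of the same gene, and Ifi205, Ifi47 and Psmb9 show some of the wider gaps between the 2 deletion arrays.

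The 2 deletion arrays differed in this group. Of the 42 rises, 34 were higher in deletion array 2 than in array 1 (81.0%), with a median difference between them of 0.30. Of the other 119 risen genes 64 were (53.8%, median 0.02), of the fallen genes 47 of 85 (55.3%), and of all genes 43.2%. The cause was not tested.

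Markers of immune cells were set beside these rises. In these bulk samples fewer cells of a type and less RNA per cell cannot be told apart. Linear signals summed over a marker list ranged from 274 to 281 in the controls and from 268 to 305 in the deletion arrays for 11 leukocyte genes, and from 687 to 725 against 691 to 703 for 14 T and NK cell genes. Those 2 lists had no called member among 9 and 11 tested genes. The macrophage and monocyte sum was higher, 348 to 353 against 423 to 472 over 14 genes, of which none of 9 tested passed and Cd14 had the largest difference (1.34, adjusted p = 0.18). The Langerhans and dendritic cell sum was higher too, 2360 to 2380 against 3420 to 3970 over 10 genes, and none of 8 tested passed. This sum was carried by Epcam (0.54), which is also the epithelial sort marker, and Mfge8, an adaptor for the uptake of dying cells (0.85, adjusted p = 0.14). It therefore does not read Langerhans cells alone. Ptprc (CD45), Adgre1 (F4/80) and Cd207 (langerin) had probe sets below the filter level in the mean over all 4 arrays, and the array's lower bound of detection is not known here. The neutrophil sum went from 1410 to 1870 in the controls to 5420 to 9170 in the deletion arrays, carried by S100a8 (2.27) and S100a9 (2.11), which keratinocytes under stress also express. Both missed the threshold (adjusted p = 0.055 each). The part of other cells in the interferon-related rises was not tested.

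Genes that p53 activates were lower in part. Of 41 arrest, repair and feedback targets, 4 fell, against 0.622% of all genes, and none rose. In the list 28 had a lower mean and the median difference was -0.23. Aen, a nuclease that p53 induces in apoptosis, read 10.92 and 10.83 on the control arrays against 9.66 and 9.61 after deletion (-1.24, SE 0.08, adjusted p = 0.017). Mdm2, the ubiquitin ligase that degrades p53, went from 10.55 and 10.61 to 9.77 and 9.73 (-0.83, SE 0.08, adjusted p = 0.031). Ccng1, the cyclin G1 gene of the same feedback loop, went from 10.39 and 10.21 to 9.25 and 9.09 (-1.13, SE 0.12, adjusted p = 0.035). The phosphatase gene Ptp4a3 went from 10.52 and 10.15 to 8.83 and 8.48 (-1.68, SE 0.19, adjusted p = 0.039). The groups did not overlap for any of the 4, as for 54.3% of all genes. The other probe sets of Aen, Ccng1 and Mdm2 were lower as well, whereas that of Ptp4a3 overlapped near the filter level, at 4.14 and 3.93 against 4.18 and 3.83. The 4 falls became 2 with the mean over probe sets and 1 without the intensity trend. None was left without control 1 or control 2, and 19 and 15 fell without deletion array 1 or 2.

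Further p53 targets were lower by similar amounts without passing. Zmat3, an RNA-binding protein gene, read 9.36 and 8.80 against 7.50 and 7.35 (-1.65, adjusted p = 0.055), and the epoxide hydrolase gene Ephx1 10.28 and 10.03 against 9.06 and 8.68 (-1.28, adjusted p = 0.055). Sesn1, an inhibitor of mTORC1 signalling, was at -0.94 (adjusted p = 0.077) and the translesion polymerase gene Polk at -0.88 (adjusted p = 0.064). The p21 gene Cdkn1a overlapped between the groups, at 12.02 and 12.07 against 11.97 and 12.08 (-0.02, adjusted p = 0.87), and is among the brightest probe sets of the table. Abhd4 (0.67), Pml (0.85) and Ccng2 (0.98) were higher without passing. Dram1, a p53 target of autophagy that is not on the list and was picked out after its values were seen, rose by 1.05 (8.16 and 7.98 against 9.14 and 9.10, adjusted p = 0.045). None of 15 p53 targets of cell death passed (median -0.07), among them Bbc3, which encodes PUMA, and Fas. The plot of p53 targets subtracts the control mean, so the 2 control arrays are centred on 0 by construction. Deletion arrays lie on both sides, with a lower mean for 28 of 41 arrest targets and 10 of 15 of cell death.

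**Figure D3:**
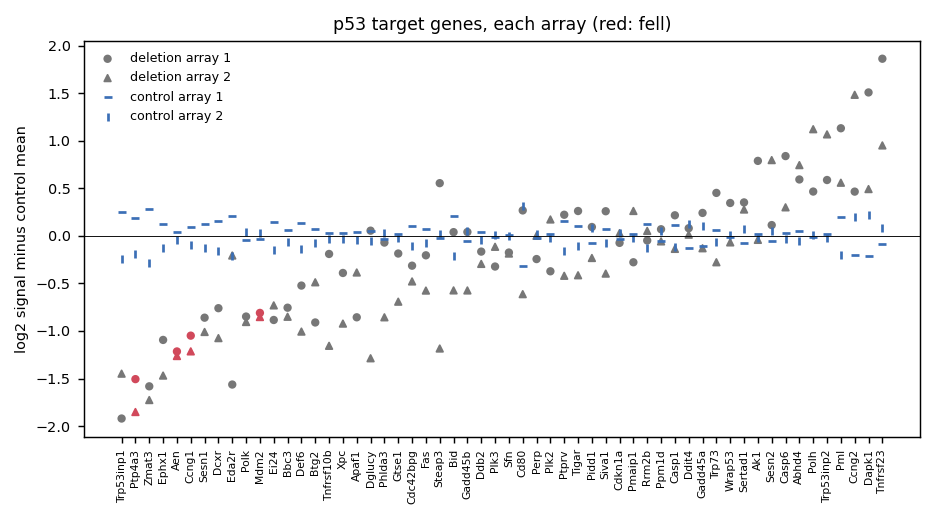
The log2 signal of each p53 target gene minus its control mean (vertical axis), by gene and ordered by mean difference, for 2 control arrays (blue dashes) and 2 deletion arrays (circles and triangles). The 4 genes that fell are red; Cdkn1a has all 4 arrays near 0.

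Late differentiation genes of the epidermis had the lowest median of the 51 pathway lists. Of 47 tested genes of the cornified envelope and filaggrin type 34 had a lower mean (median -0.65), but 1 fell. Lor, which encodes loricrin, the main protein of the envelope, went from 8.01 and 8.57 to 5.70 and 5.78 (-2.55, SE 0.23, adjusted p = 0.026). Casp14, the protease of filaggrin processing, read 9.57 and 9.79 against 6.97 and 8.91 (-1.74, adjusted p = 0.23). The lipoxygenase gene Alox12b read 9.77 and 10.03 against 6.87 and 9.64 (-1.65, adjusted p = 0.39). In both, deletion array 1 was far lower than array 2, which lay near the controls. The same held for the suprabasal keratins Krt1 (12.67 and 12.65 against 10.88 and 12.26) and Krt10 (12.46 and 12.55 against 10.65 and 12.05), neither of which passed. Krt78 fell, from 7.77 and 8.19 to 6.26 and 6.09 (-1.81, SE 0.21, adjusted p = 0.039).

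The metallothionein Mt4, which is particular to stratified squamous epithelium, was 17.6-fold lower and fell from 10.85 and 10.91 to 7.08 and 6.40 (-4.14, SE 0.25, adjusted p = 0.012). The brightest probe set of the ubiquitous Mt1 overlapped between groups, at 12.02 and 12.04 against 12.28 and 11.99. Its other probe set was lower, at 7.98 and 7.93 against 7.40 and 7.10 (-0.71). Mt3 overlapped as well (-0.09). The basal keratins Krt5 (12.85 and 12.89 against 12.84 and 12.92) and Krt14 (12.81 and 12.79 against 12.81 and 12.74) overlapped too. Keratins of the hair follicle and its ducts were higher in the deletion arrays without passing, with Krt79 at 8.74 and 6.39 against 9.90 and 10.51 and Krt75 at 4.80 and 4.54 against 8.32 and 6.06. Of the regulators of differentiation, 1 of 28 rose, the C/EBP family gene Cebpd, from 6.42 and 6.04 to 7.93 and 7.93 (1.70, SE 0.19, adjusted p = 0.036). Antimicrobial genes of inflamed epidermis had large differences with wide spread, as Lcn2 (6.88 and 5.06 against 9.23 and 10.95, adjusted p = 0.095), and none of 14 passed. Epcam, the sort marker, was at 10.42 and 10.46 against 10.95 and 11.01 (0.54, adjusted p = 0.051).

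Among matrix genes, some collagens fell and some proteases rose. Of 19 collagens 3 fell (median -0.38) and none rose. Col6a1, a chain of the microfibrillar collagen VI, read 8.52 and 8.82 against 6.10 and 5.83 (-2.70, SE 0.19, adjusted p = 0.017), and its partner chain Col6a2 7.17 and 7.39 against 5.43 and 5.42 (-1.86, SE 0.16, adjusted p = 0.022). Col5a2, a chain of the fibril-regulating collagen V, went from 6.71 and 7.03 to 5.02 and 4.75 (-1.99, SE 0.19, adjusted p = 0.028). The major fibrillar chain genes Col1a1 (10.10 and 10.33 against 8.55 and 6.84) and Col3a1 (9.81 and 9.96 against 9.26 and 6.44) were lowest in deletion array 2 and did not pass. The transmembrane collagen gene Col23a1 was higher, at 5.74 and 5.85 against 8.34 and 7.56 (2.15, adjusted p = 0.055), without passing, and both of its other probe sets were higher. Of 26 other matrix genes 2 fell, the hyaluronan-degrading Cemip by 2.59 and the proteoglycan gene Lum by 1.10 on the log2 scale. Lum had a deletion mean below the filter level (3.72 against 3.98) and was tested only through the control arrays. Dcn, a related proteoglycan, was high in deletion array 1, at 7.81 against 5.85 in array 2 and 5.04 and 4.92 in the controls.

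Of 20 matrix proteases and inhibitors 2 rose. The aggrecanase gene Adamts5 went from 5.22 and 4.97 to 7.97 and 8.78 (3.28, SE 0.31, adjusted p = 0.028), and the elastase gene Mmp12 from 4.80 and 5.18 to 7.18 and 7.27 (2.23, SE 0.19, adjusted p = 0.022). The gelatinase gene Mmp9 read 9.62 and 10.29 against 11.53 and 11.49 (1.56, adjusted p = 0.062), and the collagenase gene Mmp13 7.91 and 9.21 against 10.73 and 11.08 (2.34, adjusted p = 0.090). Beside these genes, the summed signal of 14 fibroblast markers overlapped between the groups, at 4770 to 5450 in the controls and 4300 to 6610 in the deletion arrays. Among 11 tested there was 1 fall (Lum, tested only through the control arrays) and no rise, and Pdgfra (CD140a) lay below the filter. The pericyte and smooth muscle sum was lower, 1910 to 1930 against 1570 to 1680 over 9 genes, with 1 fall among 8, Rgs5, a regulator of G protein signalling typical of pericytes (7.86 and 8.09 against 4.59 and 4.98; -3.19, SE 0.20, adjusted p = 0.014). The endothelial sum was 392 to 469 against 354 to 424. Sums were lower for 4 adipocyte genes, 2130 to 2310 against 317 to 602, carried by Fabp4 (-2.50, adjusted p = 0.056), and for 4 erythroid genes, 1270 to 2630 against 448 to 662, with Hba-a1 at -2.66 (adjusted p = 0.083). The erythroid list's 1 call went the other way: Gypc, a membrane glycoprotein gene of red cells, rose from 4.73 and 4.56 to 7.83 and 7.64 (3.09, SE 0.16, adjusted p = 0.0094). The part of these cell types in the matrix differences was not tested.

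Among transition factors, Sox4, a factor of progenitor cells and of epithelial-mesenchymal transition, rose from 7.05 and 6.79 to 9.52 and 9.26 (2.47, SE 0.17, adjusted p = 0.017), and all 4 of its other probe sets were higher. It and Twist1 were the only calls among 18 genes of that list. Id2, an inhibitor of basic helix-loop-helix factors, read 7.16 and 7.01 against 9.03 and 8.35 (1.60, adjusted p = 0.070), and the E protein genes Tcf4 and Tcf12 were at 0.97 and 0.74 with adjusted p of 0.072 and 0.080. Prrx1, a mesenchymal homeobox gene, was lower without passing (-0.74, adjusted p = 0.056). Vim, the mesenchymal intermediate filament gene, spread widely in the deletion arrays, at 9.07 and 6.68 against 8.02 and 8.74. Dpysl3, a cytoskeletal regulator on the contractile list, fell by 2.94 on the log2 scale, from 8.07 and 8.03 to 4.80 and 5.41.

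Few genes of the growth factor and signalling lists passed. Tgfa, a ligand of the EGF receptor, rose from 8.02 and 8.34 to 9.54 and 9.35 (1.26, SE 0.16, adjusted p = 0.049), the 1 call among 15 receptor and ligand genes. The MAP kinase phosphatase genes Dusp6 and Dusp10 rose by 0.94 and 1.69, the 2 calls among 17 feedback genes, while the ETS gene Etv4 was lower without passing (-0.91, adjusted p = 0.064). In the Wnt pathway the secreted inhibitor Wif1 rose from 2.98 and 3.30 to 5.96 and 5.70 (2.69, SE 0.16, adjusted p = 0.012). Both controls of Wif1 lie below the filter level, so it was tested only through the deletion arrays and its fold is set against signal not shown to be above background. Wnt4 fell from 10.84 and 10.74 to 9.84 and 9.56 (-1.09, SE 0.13, adjusted p = 0.040). Bambi, a decoy receptor of TGF-beta and BMP ligands, rose from 5.03 and 5.25 to 7.05 and 7.02 (1.90, SE 0.16, adjusted p = 0.021). The Notch target and feedback gene Nrarp fell by 0.81 on the log2 scale (adjusted p = 0.042), and the receptor gene Notch1 was at -0.83 without passing (adjusted p = 0.092). Igfbp2, which binds insulin-like growth factors, fell from 11.02 and 11.14 to 8.24 and 7.75 (-3.08, SE 0.19, adjusted p = 0.013), the 1 call of 14. Esr1 rose by 4.52 (6.56 and 5.99 against 11.10 and 10.49). CreER, which the controls lack, carries a stretch of estrogen receptor, so transgene and endogenous signal cannot be told apart.

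Growth and metabolism lists held few calls. None of 36 genes of G2 and mitosis (median -0.15), 35 of DNA replication (-0.03) and 36 of the respiratory chain (-0.02) passed. Ribosome biogenesis genes had small differences of 1 sign: 26 of 27 had a lower mean (median -0.29), the groups did not overlap for 25 against 54.3% of all genes, and none passed. Rrp12, a factor of ribosomal RNA processing, had the largest, at 8.80 and 8.87 against 7.95 and 8.07 (-0.82, adjusted p = 0.063), and the difference of Dkc1, the pseudouridine synthase gene, was -0.48 (adjusted p = 0.060). Of 27 hypoxia and glycolysis genes 2 rose, the mitophagy gene Bnip3 (9.24 and 9.01 against 10.74 and 10.78; 1.64, SE 0.11, adjusted p = 0.017) and the prolyl hydroxylase gene Egln3 (0.94, SE 0.08, adjusted p = 0.025), while Car9 was at 2.24 without passing (adjusted p = 0.078). Hmgcs1, an early enzyme of cholesterol synthesis, fell from 6.49 and 6.86 to 4.03 and 4.40 (-2.46, SE 0.21, adjusted p = 0.022), the 1 call among 19 genes of the pathway. The stress pseudokinase gene Trib3 rose by 1.41, the 1 call of 25, and Casp12, an inflammatory-group caspase, by 1.77, the 1 call of 23. Over all 51 pathway lists, 59 of 998 genes rose and 19 fell, and 20 lists had no call.

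**Figure D4:**
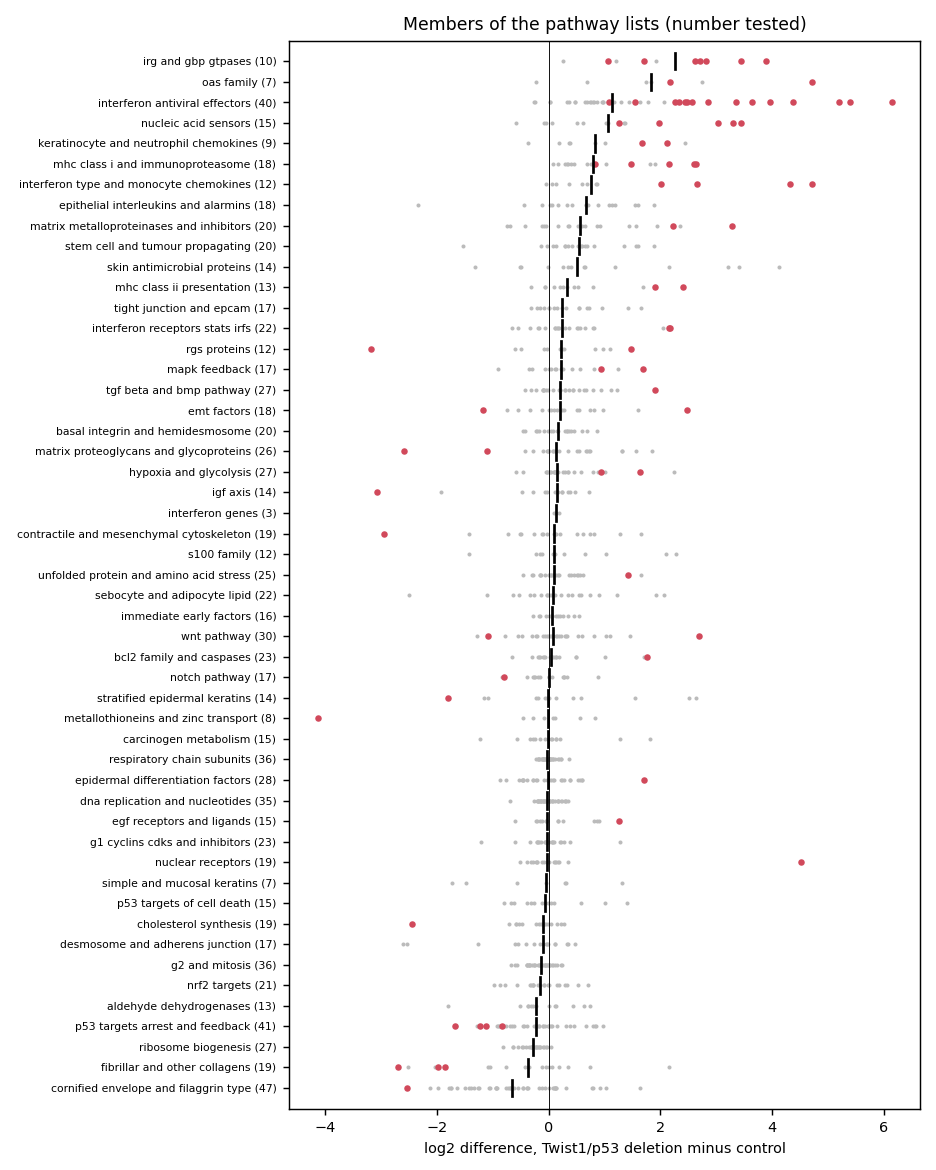
The log2 difference of each tested member (points) of the 51 pathway lists, ordered by median (black bars), with called genes in red and the number tested in brackets. GTPase, OAS, effector and sensor lists stand at the top with medians above 1, and the cornified envelope list at the bottom with -0.65.

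Most calls lay outside the lists. The following genes were partly picked out after their values were seen. Acod1, which makes the immune metabolite itaconate, went from 4.22 and 4.18 to 7.49 and 7.19 (3.14, SE 0.16, adjusted p = 0.0094), and Arg1, the arginase of macrophages and wounded epithelium, from 6.00 and 5.93 to 8.89 and 8.71 (2.84, SE 0.15, adjusted p = 0.0098). Cd200, a surface ligand that restrains myeloid cells, went from 5.79 and 6.29 to 9.85 and 9.28 (3.52, SE 0.28, adjusted p = 0.021). Other genes known to respond to interferon rose outside the 8 lists, among them Trim30d (2.14), Gbp10 (2.09), Samd9l (2.02), Rnf213 (1.82), Lgals9 (1.68) and Nmi (1.55). Trim30d had a control mean below the filter level and was tested only through the deletion arrays. The amino acid transporter gene Slc7a8 rose by 2.87, the metalloreductase gene Steap4 by 2.70 and the hyaluronan-binding Tnfaip6 by 2.59. Baiap2l1, a protein of actin protrusions, went from 7.36 and 7.26 to 10.71 and 10.91 (3.50, SE 0.13, adjusted p = 0.0080), and its other probe set was higher too. The long non-coding RNA Neat1, the scaffold of paraspeckles and a p53 target, fell from 10.58 and 10.29 to 8.74 and 8.78 (-1.68, SE 0.13, adjusted p = 0.021). Otop3, a proton channel gene, and Serpinb12, an epithelial serpin gene, fell by 2.95 and 2.30 on the log2 scale.

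Other probe sets of the same gene gave another reading for 62 of the risen and 35 of the fallen genes. Of 91 such probe sets of risen genes 84 (92.3%) had the same sign, and of 48 of fallen genes 41 (85.4%), against 70.5% among genes that did not pass. At least 50% of the gene's difference was seen in 57.1% of these probe sets for risen genes, 54.2% for fallen genes and in 4415 of 8326 for genes that did not pass. Cep85, a centrosomal gene with one of the largest rises (5.25 and 5.39 against 8.90 and 10.29), was among the exceptions: its other probe set overlapped, at 6.26 and 5.99 against 5.74 and 6.07.

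The comparison with loss of Twist1 alone used a table of another array type with its own 2 controls (Twist1fl/fl) and 2 deletion arrays (K14CreER:Twist1fl/fl), so differences were taken within each table before they were compared. Of 13296 genes matched by probe set, 20 had a higher change after the double deletion (0.15%) and 3 a lower one (0.0226%). Of the 20, 16 also rose in the double deletion, and 13 are interferon-related. Rtp4, a chaperone induced by interferon, had changes of 5.20 and 0.01 (difference 5.19, SE 0.39, adjusted p = 0.0042), and Usp18 of 3.97 and -0.16 (difference 4.13, SE 0.24, adjusted p = 0.0019). The mean of Usp18 in the controls of the double deletion lay below the filter level given above. The sensor genes Ifih1, Zbp1 and Dhx58 were among them, with changes of 3.31, 3.44 and 3.18 after the double deletion and -0.73, -0.12 and -0.05 after loss of Twist1 alone (for Dhx58 in another probe set than above). Over the 37 matched antiviral effectors the medians were 1.16 and -0.12, and 9 differed.

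Not every difference came from a rise in the double deletion. The natriuretic peptide gene Nppb (difference 4.10, SE 0.40, adjusted p = 0.017) was lower after loss of Twist1 alone (-3.59) and near its controls after the double deletion (0.50; 9.91 and 10.49 against 10.61 and 10.79). Rgs7bp, a membrane anchor of RGS proteins, had changes of -1.74 and 0.96, and the glycosyltransferase gene B3galt5 of -0.63 and 1.17 in the same order. Adamts5, Acod1, Baiap2l1 and the ciliary neurotrophic factor receptor gene Cntfr had higher changes after the double deletion as well. Lower changes were those of Oas1f, the phospholipid flippase gene Atp10d and Fam25c. No p53 target, cell cycle, epidermal differentiation, collagen or MHC gene of the lists differed past the threshold, although the medians of the p53 arrest list were -0.22 and 0.17. The count of 23 moved between 10 without control 1 or without control 2 of the double deletion and 144 without array 2 of the Twist1 deletion, and was 40 without deletion array 2 of the double deletion, 36 without array 1 of the Twist1 deletion, and 11 and 12 without controls 1 and 2 of the Twist1 deletion. Sex markers and the Esr1 probe set changed in the same direction in both comparisons. After the double deletion and after loss of Twist1 alone, Xist changed by -7.04 and -5.32, Eif2s3y by 5.70 and 5.81, and Esr1 by 4.52 and 4.73. The array type differed between the comparisons. The part of sex, Cre and array type in these differences was not tested.

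**Figure D5:**
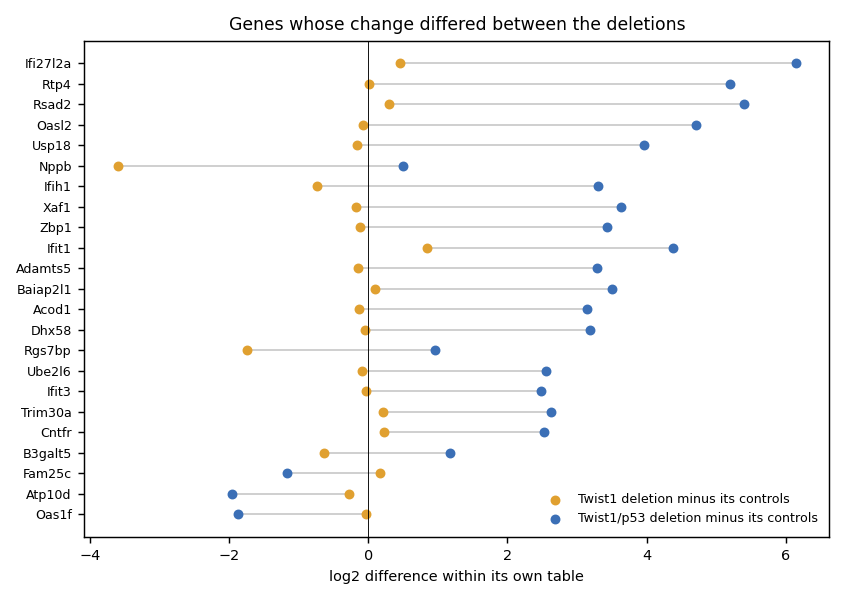
The 23 genes whose change differed between the deletions, with the log2 difference from their own controls after the Twist1/p53 deletion (blue) and after the Twist1 deletion (orange). Most blue points lie between 2 and 7 with orange points near 0, while Nppb and Rgs7bp have orange points below -1.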

How the data were processed

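Per the labels' protocols, total RNA was purified with a Qiagen kit, biotin-labelled and run on the arrays by a core facility. The authors deposited the values as 1 table per array type, and the deposited log2 values of this table ran from 2.76 to 13.24 with array medians of 4.81 to 4.82; the log2 scale was read from the values. The software that summarised and normalized the arrays was not given in the sources used here. No detection calls or scanner files were used, so the background is unknown, and precision is limited by the number of arrays.

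Gene symbols came from the platform annotation. Of the probe sets, 551 had several symbols and 15564 none listed, and both kinds were left out. Each gene was represented by its brightest probe set, and genes under the 20th percentile (log2 signal 3.98) were left out. Differences were fitted with limma 3.58.1 in R 4.3.3 (lmFit and eBayes with an intensity trend), with Benjamini-Hochberg adjustment over all genes and a threshold of 0.05. The change after the double deletion minus that after loss of Twist1 alone was fitted over 8 arrays with 4 group means. Same-numbered arrays did not deviate together (correlation -0.02), so the numbers were not used as pairs. On simulated arrays of this comparison (13667 genes), 26.8% of genes changed by 1 log2 unit and 78.8% of those changed by 2 were called. The simulation gave both groups the same spread for a gene. In the data the deletion arrays lay further apart than the controls (SD 0.47 against 0.19), so these shares may not hold for them.

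The genes named are the 25 largest rises and falls, the called members of each list, the 2 highest and 2 lowest uncalled members, fixed controls and others chosen after their values were seen; not all that the rule picks are named. The members and lists were chosen with earlier results of these data known. Alternatives were other normalizations, filters, probe set rules, variance models and thresholds, a replicate block, a fit without X and Y genes, and leaving out each array. The level of the p53 gene is not reported here. Promoters came from RefSeq tables of build GRCm38.p6.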

Additional observations from a re-analysis of the deposited data

How the results depend on the processing

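The 246 calls (161 rises, 85 falls) became 396 (254 and 142) with weights by group, 859 (456 and 403) at an adjusted p under 0.10 and 22 (21 and 1) under 0.01. With the replicate block, 4 genes were called (3 and 1), and 6 in the difference between the deletions, from 23; the replicate numbers showed no pairing. Leaving out 1 array gave between 0 and 3775 calls (0 to 1702 rises, 0 to 2088 falls), and 10 to 144 for the difference. The calls numbered between 192 and 263 under quantile normalization, median centring, the other filters, the mean over probe sets, no trend, the robust fit and the fit without X and Y genes, of which at least 179 were shared with the 246. Genes near their controls changed sign: Cdkn1a was at 0.0021 with quantile normalization, Krt5 at -0.020 and Ifitm1 at -0.00038 with median centring, and Mt1 at -0.30 with the mean over probe sets. Leaving out 1 array gave Cdkn1a -0.073 to 0.030, Ifitm1 -0.24 to 0.29, Mt1 -0.035 to 0.25, Krt5 -0.034 to 0.045, Krt14 -0.057 to 0.0058, Ciita -0.19 to 0.067 and Vim -1.70 to 0.69, of which Mt1 passed at 0.25 (without deletion array 2) and Vim at -1.70 (without deletion array 1). Genes near the filter level may lie at the array's background, which limits their folds.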
